A study of Drosophila melanogaster with 24 samples.

Results

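The microRNA gene mir-14 was followed through both of its mature products, dme-miR-14-3p and dme-miR-14-5p, in small RNA libraries of hemolymph and body tissue from Drosophila melanogaster. The members were the rows of the count table named for an arm of mir-14, 2 of 466 mature names. Hemolymph is the open circulating fluid of the fly. The libraries fall into 4 groups, all labelled male: young body (2 days of age, n = 4), old body (25 days, n = 8), young hemolymph (2 days, n = 4) and old hemolymph (25 days, n = 8). No genotype, strain or treatment is named in the labels used here. RNA of hemolymph was extracted with a kit for serum or plasma and RNA of body with the maker's standard kit, so kit and compartment cannot be told apart. The old libraries carry either the letter O (numbers 1 to 4) or the letter R (numbers 5 to 8) in their description codes, with no meaning given.

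A microRNA hairpin is cut by Drosha and Dicer into a short duplex. In most cases 1 strand is kept in an Argonaute protein and the other is mostly degraded, so the 2 arms of a hairpin usually differ widely in abundance. In Drosophila mir-14 is known as a suppressor of cell death. Flies that lack it are stress sensitive and short lived and carry raised fat stores. The microRNA also acts in the insulin-producing neurosecretory cells of the brain, where its target sugarbabe limits insulin gene expression, and in a feedback loop with the ecdysone receptor. The hairpin lies on chromosome 2R from 9553762 to 9553824 on the plus strand (dm6 coordinates), and spans 63 bases. It sits within the exon of transcript RB of the long noncoding RNA lncRNA:CR43651 (9552844 to 9553940). The exon of transcript RA ends at 9553764, inside the hairpin. The 5p arm occupies 9553765 to 9553786 and the 3p arm 9553802 to 9553823, each 22 bases long.

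The libraries held 136692 to 242935 microRNA counts in body and 52792 to 275974 in hemolymph. The 3p arm was covered by 2991 to 20620 counts per library and the 5p arm by 32 to 296, so the counting error of a single value was at most 1.83% of it for the 3p arm and at most 17.7% for the 5p arm. As a check of the compartments, the muscle markers miR-133-3p and miR-1-3p summed to 1785 ± 174 CPM in old body and 102 ± 51.0 CPM in old hemolymph. The 3 nervous system markers behaved likewise, with 3267 ± 446 and 37.3 ± 41.4 CPM. Of these, miR-124-3p was listed at 0 in all 4 young and in 7 of 8 old hemolymph libraries. The 4 ovary microRNAs on the marker list all had counts in body libraries labelled male. Their sum ran from 19767 to 35811 CPM for old body, and from 2556 to 80443 CPM for young body. The 17 microRNAs of the testis cluster summed to less. Old body libraries held 181 ± 24.6 CPM of them, with 4 members at 0. Young body libraries held 102 ± 30.8 CPM, with 7 members at 0. Whether these sums bear on the label male was not tested.

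The 3p arm was the dominant product in every library and one of the leading microRNAs of the fluid. In young body it stood at 40155, 26024, 23804 and 27896 CPM (the count scaled to a fixed library total) in libraries 1 to 4, and in young hemolymph at 100031, 74717, 58847 and 69975 CPM. The young compartments did not overlap, and library 1 was the highest of each. Whether other microRNAs separated in the same way was not counted. In old body the lowest, median and highest libraries were at 32289, 48395 and 53095 CPM, and in old hemolymph at 45855, 55317 and 85057 CPM. The old compartments overlapped. As a share of all microRNA counts, the 3p arm took 2.95% ± 0.732 (SD, n = 4) in young body, 4.46% ± 0.803 (n = 8) in old body, 6.01% ± 1.48 (n = 8) in old hemolymph and 7.59% ± 1.74 (n = 4) in young hemolymph. In that order of means, old body and old hemolymph overlapped, as did young and old hemolymph and young and old body.

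By abundance the 3p arm ranked 4th or 5th in each of the 12 hemolymph libraries and between 6th and 11th in the 12 body libraries. Its neighbours in the order of mean CPM were, in old body, bantam-3p above (45166 ± 3006 CPM) and miR-276a-3p below (31831 ± 3130). In young body they were miR-318-3p above (32428 ± 34104) and miR-312-3p below (25694 ± 25380), both with a spread near their mean. In old hemolymph they were miR-184-3p above (87202 ± 15448) and miR-276a-3p below (56688 ± 9902), and in young hemolymph bantam-3p above (86639 ± 14533) and miR-317-3p below (36277 ± 21215). Of these neighbours, only miR-184-3p above in old hemolymph, miR-276a-3p below in old body and miR-317-3p below in young hemolymph had a mean farther from that of the 3p arm than the larger of the 2 SDs.

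The 5p arm was far scarcer and separated the compartments more cleanly. In young body it stood at 459, 261, 299 and 420 CPM in libraries 1 to 4, and in young hemolymph at 1714, 1073, 2428 and 1040 CPM. In old body the lowest, median and highest were 219, 321 and 387 CPM, and in old hemolymph 1155, 1651 and 1928 CPM. Every hemolymph library lay above every body library at both ages. How many other microRNAs also separated the compartments fully was not counted, so this cannot be called particular to the 5p arm. The means were 360 ± 94.8 CPM in young body, 313 ± 65.9 in old body, 1564 ± 655 in young hemolymph and 1615 ± 282 in old hemolymph. Within a compartment the ages overlapped. The 5p arm ranked between 72nd and 85th among all names in body and between 30th and 49th in hemolymph.

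**Figure D1:**
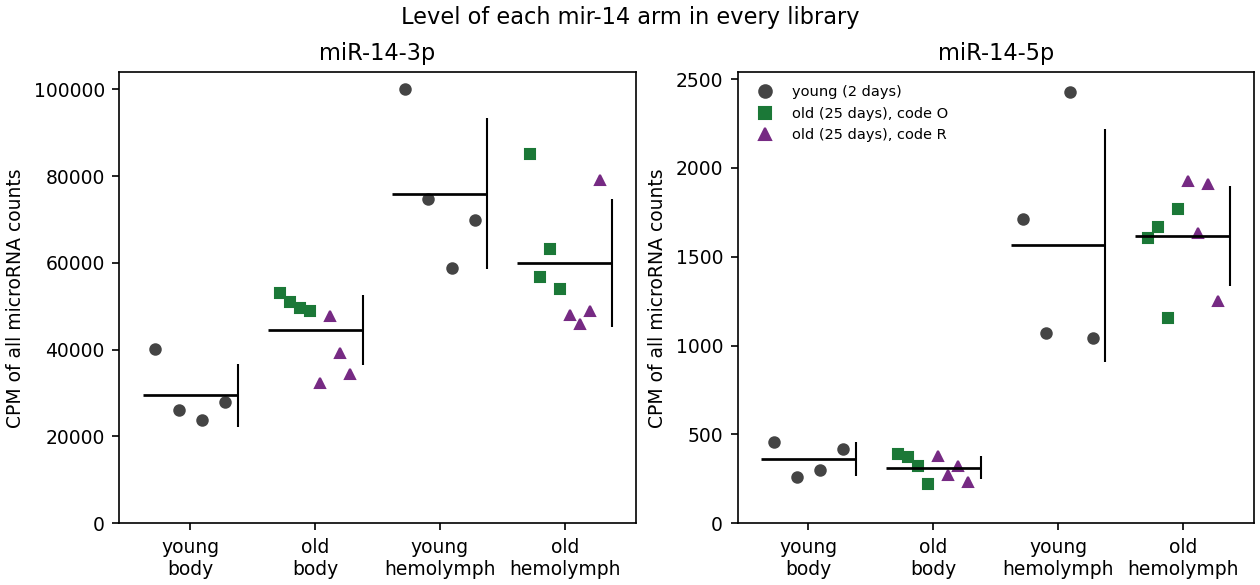
CPM of miR-14-3p (left) and miR-14-5p (right) in each of the 24 libraries, with symbols for young libraries and for old libraries of code O or R. Horizontal lines are group means and vertical lines 1 SD on each side. The 5p values of all hemolymph libraries, 1040 CPM and up, lie above the highest body value of 459 CPM, while the 3p values of old body and old hemolymph overlap.

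The first comparison asked how the circulating pool differs from the tissues. In young flies both arms were higher in hemolymph. With edgeR's quasi-likelihood test, miR-14-3p had a log2 fold change of 1.40 ± 0.27 (SE, adjusted p = 5.74e-05, n = 4 against 4) and miR-14-5p of 2.15 ± 0.30 (adjusted p = 7.8e-07). Both arms were called, at adjusted p below 0.05, where 73.4% of the 124 microRNAs tested were called (41 higher and 50 lower), so being called was common. Among the 124 values the 5p arm was the 12th highest and the 3p arm the 30th. Both calls held under all 12 other settings and without any 1 library.

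In old flies the arms parted. The 5p arm was higher in hemolymph by 2.26 ± 0.21 (edgeR, adjusted p = 9.22e-10, n = 8 against 8), the 8th highest of 124 values. The 3p arm stood at 0.33 ± 0.19 and was not called (edgeR, adjusted p = 0.105), while 82.3% of the 124 tested were called (45 higher and 57 lower). The value of the 3p arm moved with the scaling of the libraries. It was 0.80 with upper-quartile factors (adjusted p = 7.71e-05) and 0.049 with RLE factors (adjusted p = 0.771), settings that moved the median of all tested microRNAs by 0.48 and -0.27. Relative to that median, which was -0.45 in the reported fit, the 3p arm stood 0.78 higher, and 0.77 to 0.91 higher under the 12 other settings. Scaling factors move all microRNAs of a comparison nearly alike. For the settings that change only the scaling, a steady distance from the median was therefore fixed in advance and is no test of the value. The 3p arm was called, at 0.39 to 0.46, when any of 8 libraries was left out, namely old body 2, 3, 4 and 6, young body 3 and 4, and old hemolymph 4 and 5. Old hemolymph 4 also held 17907 CPM of the ovary microRNA miR-318-3p, against 147 to 2178 CPM in the other 7. In bulk material such as this, fewer cells of a type and less RNA per cell cannot be told apart.

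**Figure D2:**
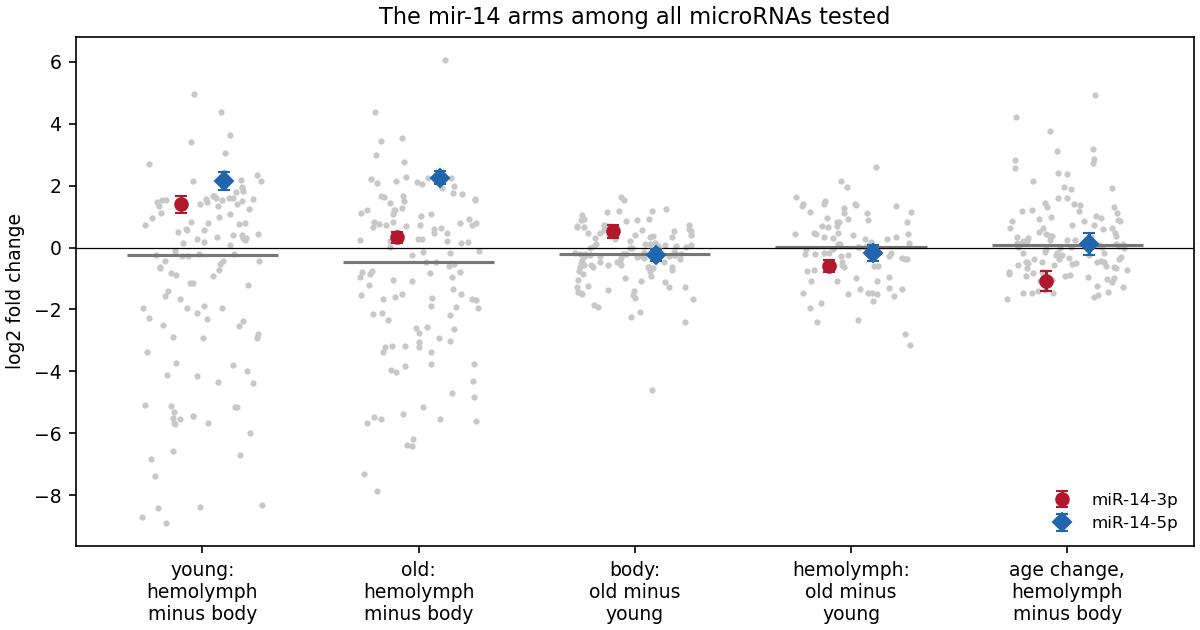
Log2 fold changes of miR-14-3p (circles) and miR-14-5p (diamonds) with their SE in 5 comparisons, over the values of all microRNAs tested (grey points) and their median (grey lines). The 5p arm lies above 2 in both comparisons of hemolymph with body, while the 3p arm falls from 1.40 in young to 0.33 in old flies.

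The second comparison asked how the body's level changed between 2 and 25 days. The 3p arm rose in body with age, by 0.52 ± 0.20 (edgeR, adjusted p = 0.0434, n = 8 against 4), and the 5p arm was at -0.25 ± 0.20 (adjusted p = 0.306). In this comparison 48.7% of 115 microRNAs were called (22 higher and 34 lower) and the median value was -0.20. The 3p arm lost its call when any of 6 libraries was dropped, old body 1, 3, 4, 6 and 8 and young body 4 (0.36 to 0.49). It also lost it with upper-quartile factors (0.43, adjusted p = 0.115) and, in a fit chosen after seeing the data, when all 24 libraries were fitted (0.49, adjusted p = 0.106). Without young body library 1 it was 0.78 (adjusted p = 0.000818). Relative to the median of the tested microRNAs the value was 0.66 to 0.80 whichever library was left out. Under the other settings it ran from 0.559 (R libraries as the only old ones) to 0.925 (O libraries as the only old ones).

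The old body libraries differed by description code. Those coded O were at 53095, 51082, 49674 and 48960 CPM of miR-14-3p, and those coded R at 32289, 47830, 39320 and 34457 CPM. The codes did not overlap (50703 ± 1822 and 38474 ± 6895 CPM), at an exact permutation p = 0.0286, the smallest that 4 against 4 allows (two-sided, adjusted p = 0.0571 over 2 tests). With CPM scaled by TMM factors the difference was -9447 in place of -12229 CPM (exact permutation test, adjusted p = 0.114). How many other microRNAs also separated by code was not counted, so the difference cannot be called particular to miR-14-3p. Against young body, the O libraries alone gave a change of 0.65 (edgeR, adjusted p = 0.0282) and the R libraries alone 0.34 (adjusted p = 0.354). In old hemolymph the codes overlapped, at 64707 ± 14104 CPM for O and 55437 ± 15867 for R (exact permutation p = 0.429, adjusted p = 0.429).

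Young body libraries also differed in their tissue markers. The ovary microRNA miR-318-3p was at 64.0, 6660, 68137 and 54850 CPM in young body libraries 1 to 4, and the neuronal miR-124-3p at 502, 361, 96.1 and 70.0 CPM. The library with the least miR-318-3p had the most miR-14-3p. In old body miR-318-3p ran from 14315 to 21136 CPM in O libraries and from 16593 to 27895 CPM in R libraries, and its 2 highest libraries, numbers 5 and 8, had the 2 lowest values of miR-14-3p. The part of these markers in the age change was not tested. Without young libraries 1 and 2 the rise of the 3p arm was 0.84 (edgeR, adjusted p = 0.000223).

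In hemolymph the 3p arm went the other way. It fell by 0.59 on the log2 scale from 2 to 25 days (SE 0.20, edgeR adjusted p = 0.0239, n = 8 against 4), and the 5p arm was at -0.17 ± 0.25 (adjusted p = 0.600). Of 86 microRNAs tested here 46.5% were called (16 higher and 24 lower), with a median value of 0.02. Young and old libraries overlapped, and the call was lost without young hemolymph library 1 (-0.45), 2 (-0.31) or 3 (-0.39) or old hemolymph library 6 (-0.47). It was also lost with upper-quartile factors (-0.37), with library size alone (-0.34), with no low-count filter (-0.54, adjusted p = 0.143) and with O libraries (-0.46) or R libraries (-0.44) as the only old ones. Without young libraries 1 and 2 it was -0.33 (edgeR, adjusted p = 0.272). With any 1 library left out the value was -0.57 to -0.31, in every fit smaller in size than the reported -0.59. Relative to the median of the tested microRNAs the 3p arm stood at -0.73 to -0.42 in those fits, and at -0.61 in the reported fit. It came nearer to the median with O libraries as the only old ones (-0.39) and without young libraries 1 and 2 (-0.33).

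The difference between the 2 age changes was tested as an interaction over all 24 libraries. For miR-14-3p the age change in hemolymph was lower than that in body by a log2 value of -1.07 ± 0.33 (edgeR, adjusted p = 0.0258), the 13th lowest of 124. For miR-14-5p it was 0.10 ± 0.36 (adjusted p = 0.876). In this test 14.5% of the 124 microRNAs were called, 8 higher and 10 lower. The sign of the 3p value was negative under all 11 other settings and without any 1 library (-1.41 to -0.72). Dropping any of 10 libraries ended the call, namely old body 1 to 4 and 6 to 8, young body 3 and 4, and old hemolymph 4. So did the use of old libraries of 1 code (-0.90 for O and -0.72 for R), no low-count filter (-0.84) and summed rows of a name (-0.73). Those fits also shifted the median of all tested microRNAs, by up to 0.32 when 1 library was left out, and relative to that median the 3p arm stood at -1.41 to -0.97.

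**Figure D3:**
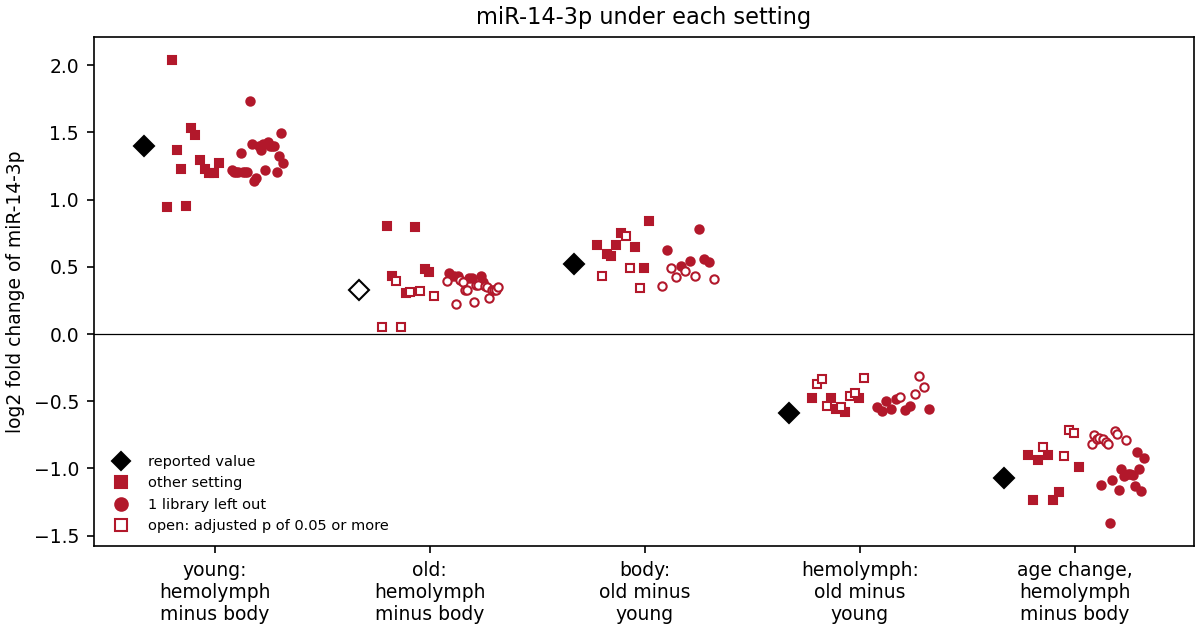
Log2 fold change of miR-14-3p in the same 5 comparisons as reported (diamonds), under other settings (squares) and with 1 library left out (circles), with open symbols where the adjusted p was 0.05 or more. All values for young hemolymph against young body are filled and lie between 0.95 and 2.04, while the other comparisons hold filled and open symbols on the same side of 0.

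The ratio of the arms within a library does not depend on how libraries are scaled. The 5p arm made up 1.13%, 0.992%, 1.24% and 1.48% of the counts on both arms in young body libraries 1 to 4, and 1.68%, 1.42%, 3.96% and 1.46% in young hemolymph. The 95% Wilson intervals, which cover counting error only, were 0.747% to 1.32% for the lowest of these libraries (young body 2) and 3.36% to 4.67% for the highest (young hemolymph 3). That library stood apart from the other 3 of its group, with the highest 5p and the lowest 3p level among them, and had 56010 counts, the fewest. In old body the lowest, median and highest share were 0.445%, 0.698% and 1.16%, and in old hemolymph 1.55%, 3.02% and 3.87%. The old compartments did not overlap.

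On the log2 scale the ratio of 3p to 5p counts was 7.15 ± 0.40 in old body and 5.20 ± 0.54 in old hemolymph, a difference of -1.95 (two-sided exact permutation p = 0.000155, the smallest that 8 against 8 allows, adjusted p = 0.000622 over 4 tests). All 8 old hemolymph libraries were below all 8 old body libraries. Within the codes the difference was -1.94 for O and -1.97 for R. In young flies the ratio was 6.36 ± 0.24 in body and 5.66 ± 0.72 in hemolymph. The difference of -0.69 did not pass (exact permutation p = 0.0857, adjusted p = 0.114), and it was -0.34 without young hemolymph library 3. With age the ratio rose in body by 0.79 (exact permutation p = 0.0121, adjusted p = 0.0242, n = 8 against 4). That call was lost without young body library 3 (0.78) or 4 (0.69), each at an adjusted p = 0.0727 by the exact test. In hemolymph the age difference was -0.46 (exact permutation p = 0.226, adjusted p = 0.226), and -0.82 without young hemolymph library 3 (exact permutation test, adjusted p = 0.0323). Whether the age change of the ratio differs between the compartments was not tested.

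**Figure D4:**
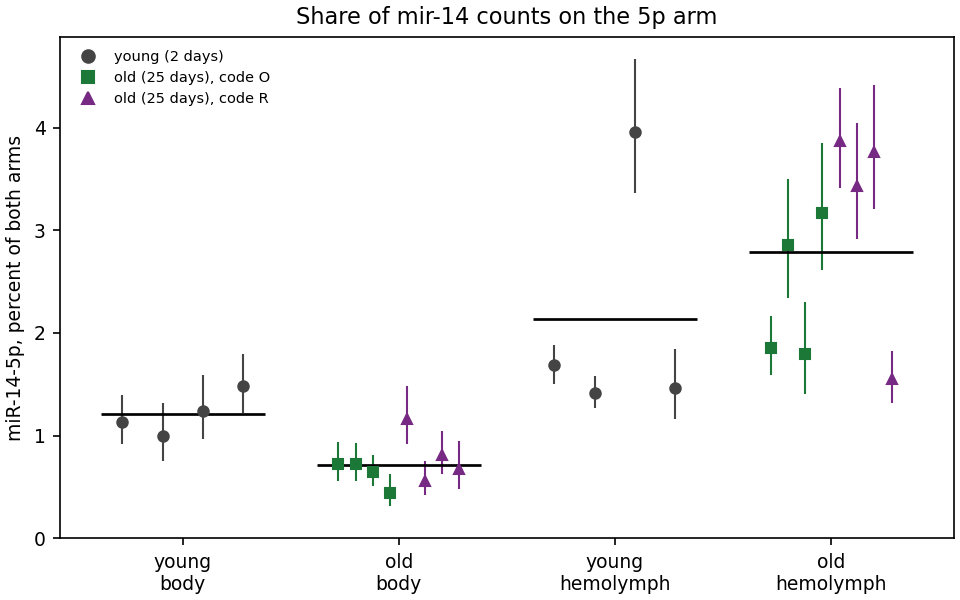
Share of the counts on both mir-14 arms that were miR-14-5p, in percent, for each library with its 95% Wilson interval, and group means as lines. All 8 old hemolymph libraries, at 1.55% to 3.87%, lie above the 8 old body libraries, at 0.445% to 1.16%, and 1 young hemolymph library stands at 3.96%.

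Among hairpins with both arms listed and at least 100 counts in a group, mir-14 was not at an extreme. With counts summed over a group, 0.700% of its counts lay on the lesser arm in old body, where 34 of 80 hairpins had a lower share (median 0.960%), and 2.58% in old hemolymph, where 33 of 56 had a lower share (median 0.908%). From old body to old hemolymph the ratio of the lesser to the greater arm rose by 1.91 on the log2 scale for mir-14. A larger rise was seen in 12 of 54 hairpins, and the median was 0.67. From young body to young hemolymph it rose by 0.48 for mir-14, against a median of 0.48 over 50 hairpins. From young body to old body it changed by -0.82 for mir-14. A higher value was seen in 59 of 77 hairpins, and the median was -0.06. From young hemolymph to old hemolymph it rose by 0.61 for mir-14. A larger rise was seen in 18 of 52 hairpins, and the median was 0.11.

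Likeness to miR-14-3p was measured as Pearson's r of log2 CPM over the 24 libraries, among the 123 other microRNAs tested, and is a description over libraries that share compartment and kit. The most like were miR-996-3p (r = 0.840), miR-986-5p (0.808), miR-970-3p (0.803), miR-184-5p (0.803) and miR-279-3p (0.795). The sister microRNA pair miR-996-3p and miR-279-3p had, like miR-14-3p, their highest mean in young hemolymph (4478 and 10950 CPM), then old hemolymph (3149 and 6773), old body (1750 and 3905) and young body (1052 and 3712). The same order held for miR-970-3p and miR-184-5p, while miR-986-5p had its highest mean in old hemolymph (2208 CPM). The other arm, miR-14-5p, was 17th, with r = 0.640. After the group means were subtracted the most like were miR-9a-5p (0.750), miR-276a-3p (0.740) and miR-2b-3p (0.695). The r of miR-14-5p was then -0.066, 74th of 123. The mean counting error of the 5p arm was 12.1% in young body and 14.3% in old body. The SD of its CPM there was 26.4% and 21.1% of the mean. In young and old hemolymph the counting error was 8.01% and 9.13%, and the SD 41.9% and 17.4%. How far counting error lowers this r was not tested, and the low r is not read as independence of the arms within groups.

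Other microRNAs with known roles in the same processes were taken from 3 lists. Of 7 metabolism and insulin microRNAs, 5 were higher and none lower in hemolymph in young flies (median 1.24, against -0.26 over all tested), and again 5 and none in old flies (median 1.02 against -0.45). The share called was near that over all 124 tested, 73.4% in young and 82.3% in old flies, of which 41 and 45 were higher. Among them, miR-8-3p, which promotes fat body insulin signalling, was higher by 1.52 ± 0.23 in young and 1.20 ± 0.16 in old flies. miR-33-5p, encoded within the sterol regulator gene SREBP, was higher by 1.07 ± 0.18 in old flies (edgeR, adjusted p = 6.36e-06). With age, miR-8-3p and miR-33-5p rose in body, where let-7-5p fell, as did miR-277-3p. In hemolymph miR-33-5p rose (1.11 ± 0.25), and miR-277-3p (-1.09 ± 0.28) and miR-9a-5p (-2.33 ± 0.32) fell. Of all 115 tested in body 48.7% were called, and 46.5% of 86 in hemolymph. Over all settings 4 to 7 of the 7 were higher in hemolymph and 0 to 1 lower in young flies, and 4 to 7 higher and none lower in old flies. With age they ran from 0 to 4 higher and 0 to 3 lower in body, and from 0 to 3 higher and 1 to 2 lower in hemolymph.

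Of 11 cell survival microRNAs 9 were tested between compartments. In young flies 4 were higher and 2 lower in hemolymph (median 0.31 against -0.26 over all tested), and in old flies 1 was higher and 6 were lower (median -1.10 against -0.45). Over all 124 tested, 73.4% were called in young flies, 50 of them lower, and 82.3% in old flies, 57 of them lower, so the share of the list that was called was near the background at both ages. Over all settings the young counts ran from 1 to 5 higher and 1 to 4 lower and the old counts from 1 to 2 higher and 4 to 7 lower, and with RLE factors the young median was -0.18. The single higher one in old flies was miR-11-3p, from an intron of E2f1, which restrains E2f1-driven cell death (0.93 ± 0.12, edgeR adjusted p = 1.85e-07). It was also higher in young flies, by 1.40 ± 0.17. Between ages in hemolymph 3 of 7 tested fell and none rose, near the 46.5% called of all 86 tested, 24 of them lower (0 to 1 higher and 2 to 5 lower over all settings). They were miR-2a-3p (-2.41 ± 0.29), miR-2b-3p (-0.97 ± 0.20) and bantam-3p, which represses the death gene hid, and which fell by 1.32 on the log2 scale (SE 0.13, edgeR adjusted p = 5.56e-06). In body 3 of 10 rose with age (miR-308-3p, 1.62 ± 0.26, miR-2b-3p, 0.40 ± 0.12, and miR-263a-5p, 0.34 ± 0.12), and 3 fell (miR-263b-5p, miR-2a-3p and bantam-3p), where 48.7% of all 115 tested were called, and over all settings 1 to 4 rose and 0 to 3 fell. Members of the miR-2 family are near-identical in sequence and hold reads that the counting may have split or shared, so their values are uncertain.

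Of 5 ecdysone-linked microRNAs, which include miR-8-3p and let-7-5p of the metabolism list, 3 were higher in hemolymph in young flies (median 1.34) and 4 in old flies (median 1.63), with none lower, where 73.4% and 82.3% of all tested were called. Over all settings the counts ran from 2 to 4 higher and 0 to 2 lower in young flies, and from 4 to 5 higher and none lower in old flies. let-7-5p, a developmental timing microRNA, was higher by 1.34 ± 0.31 in young and 2.23 ± 0.23 in old flies. With age in hemolymph 1 of the 5 rose, miR-34-5p, by 2.60 ± 0.57 (edgeR, adjusted p = 0.00221), and none fell. In body miR-34-5p and miR-8-3p rose and let-7-5p fell with age. Over all settings 1 to 4 rose and none fell in hemolymph, and 0 to 2 rose and 0 to 3 fell in body. In the interaction of age and compartment, where 14.5% of all tested were called, the reported edgeR fit called no metabolism or ecdysone microRNA and 2 of 9 survival microRNAs, both lower, namely miR-2b-3p (-1.37 ± 0.24) and miR-2c-3p (-1.40 ± 0.44). These counts moved with the setting. RLE factors gave 1 metabolism microRNA higher and 1 lower, 1 ecdysone microRNA higher and 4 survival microRNAs lower, and upper-quartile factors 6 survival microRNAs lower. Over all settings the metabolism list ran from 0 to 2 higher and 0 to 1 lower, the ecdysone list from 0 to 4 higher, and the survival list from 0 to 1 higher and 0 to 6 lower.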

How the data were processed

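Small RNA was sequenced from 24 libraries as single reads of 50 bases. The submitters' processing notes name Bowtie 1.0, edgeR and the genome dm6. Trimming, microRNA annotation release and treatment of multiply matching reads were not given in the sources used here. Values deposited as counts are whole read counts per mature microRNA and hairpin. The deposited RPM values matched the counts, rescaled by column sums, within 0.005 and were not tested.

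Where several hairpins share a mature name, only its most abundant row was kept, leaving out 10 of 476 rows. Both arms of mir-14 have a single row each. Counts were fitted over the whole table with edgeR 4.0.16 in R 4.3.3 (filterByExpr with a minimum count of 10, TMM factors, quasi-likelihood F test, Benjamini-Hochberg adjustment, threshold 0.05), and both arms passed the filter in each fit. Compartments and the interaction were fitted over 24 libraries, ages within the 12 of a compartment. SE was derived as the size of the log2 fold change over the root of F. The arm ratio is log2((3p + 0.5)/(5p + 0.5)), compared by exact permutation of libraries (scipy 1.17.1). Alternatives included DESeq2 1.42.0 and limma 3.58.1. Reported levels are CPM of the kept rows. Nothing in the labels says that libraries came from separate pools of flies, so p-values measure the spread between libraries, which may be technical. TMM sets changes relative to the bulk of microRNAs. Counting intervals cover counting error only.

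Named beside the arms are up to 3 abundant members of each list, members needed for small counts, the 5 most like microRNAs (3 after group means) with log2 CPM at a prior count of 2, and neighbours in abundance. The members and lists were chosen with earlier results of these data known. The fit of all 24 libraries for ages was chosen after seeing the data.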

Additional observations from a re-analysis of the deposited data

Results flagged for a closer look

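The age change of miR-14-3p differed between the compartments by edgeR's interaction test, at -1.07 on the log2 scale (adjusted p = 0.0258). The reported fits gave a rise in body and a fall in hemolymph. The interaction call was lost under 4 other settings and in 10 fits with 1 library left out. The rise and the fall each lost their call in some fits as well. Among 12 sets of values looked at (2 arms and their ratio in 4 groups), 1 had a library far from the rest. In young hemolymph the log2 arm ratio of library 3 was 4.59, and those of the other 3 libraries were 5.86, 6.12 and 6.06. Chance marks about 1 in 20 such groups.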

How the results depend on the processing

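The higher level of both arms in young hemolymph, and of miR-14-5p in old hemolymph, passed under all other settings and without any 1 library. For miR-14-3p in old hemolymph against old body, the call was gained with upper-quartile factors (0.80), library size alone (0.43), limma with sample weights (0.30), the compared groups only (0.80), R libraries only (0.49) and summed rows (0.46), and leaving out 1 library gave 0.22 to 0.46. Its rise in body was lost with upper-quartile factors (0.43), the replicate block (0.73), all 24 libraries (0.49) and R libraries only (0.34), and ran from 0.36 to 0.78 without 1 library. For ages, the replicate block leaves R libraries with no young library of the same number. The change in that fit therefore rests on young and O libraries only. Its fall in hemolymph was lost with the replicate block (-0.54), library size alone (-0.34), upper-quartile factors (-0.37), no low-count filter (-0.54), O (-0.46) or R libraries only (-0.44), and without young libraries 1 and 2 (-0.33), and ran from -0.57 to -0.31. Its interaction was lost with no low-count filter (-0.84), O (-0.90) or R libraries only (-0.72) and summed rows (-0.73), and ran from -1.41 to -0.72. Values of miR-14-5p that were not called changed sign: its age change in hemolymph with upper-quartile factors (0.044), library size alone (0.051) and R libraries only (0.17), with -0.29 to 0.45 without 1 library, and its interaction with upper-quartile factors (-0.058), with -0.18 to 0.48. The cause was not tested.

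The arm ratio calls were lost with 1 code only, by construction in part, since 4 against 4 allows no smaller p than 0.0286: 0.95 (O) and 0.63 (R) for age in body, -1.94 and -1.97 for old compartments. Without 1 library the age difference was 0.69 to 0.90 in body, and -0.82 to -0.31 in hemolymph. The count of microRNAs called in the interaction was 18, and 28 with RLE factors, 30 with DESeq2, 29 without young libraries 1 and 2, 9 with no low-count filter and 5 with R libraries only. For age in body it was 56, and 35 with limma, 5 with the replicate block, where only young and O libraries inform the change, and 28 with either code. For age in hemolymph it was 40, and 20 with the replicate block, with the same limit, and 25 with O libraries. Upper-quartile factors gave 55 higher and 45 lower in young and 55 and 50 in old compartments. Same-numbered young body and hemolymph libraries correlated at 0.027 to 0.591 and old ones at -0.345 to 0.116 in their deviations from group means, so the numbers were not taken as pairs.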
